A study of Homo sapiens with 24 samples.

Results

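The comparison described here sets MM1.S myeloma cells treated with both CX-5461 at 500 nM and panobinostat at 50 nM against MM1.S cells treated with vehicle, each for 24 h. Its members were chosen by their labels alone, and they are 6 of the 24 libraries of the series: 3 of the combination and 3 of vehicle. MM1.S is an established human multiple myeloma line, labelled p53 wild type. The other groups used for comparison have 3 libraries each: MM1.S cells given panobinostat at 50 nM alone, MM1.S cells given CX-5461 at 500 nM alone, and, in the p53 null myeloma line JJN3, the combination and its vehicle. Both lines carry the genotype label wild type beside their p53 label. All cells were grown in RPMI-1640 medium with fetal bovine serum, and all libraries were 3′ RNA sequencing libraries of polyA-selected RNA, which read a stretch near the end of each transcript. Each line is 1 established culture line, so the lines differ in more than p53. The labels do not say whether replicates came from separate cultures, and p-values measure the spread between these libraries, which may be technical. In bulk RNA, fewer cells that express a gene and less of its RNA per cell cannot be told apart.

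CX-5461 blocks RNA polymerase I, the enzyme that reads ribosomal RNA genes, and also acts on topoisomerase II and G-quadruplex DNA. Damage to the nucleolus is known to free ribosomal proteins that bind MDM2, the ubiquitin ligase of p53, so that p53 accumulates and turns on its target genes. Panobinostat blocks the zinc-dependent histone deacetylases (HDACs), raises histone acetylation and is used against multiple myeloma, a cancer of antibody-secreting plasma cells that depends on the transcription factors IRF4, PRDM1 and XBP1, on MYC and on a large secretory apparatus.

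The combination libraries held 5063328, 5647591 and 5182287 counts, and the vehicle libraries 6233062, 4912481 and 6309535. Between 16026 and 16204 genes had at least 1 count in a combination library, and between 13986 and 14459 in a vehicle library. MALAT1, a nuclear noncoding RNA, took 6.73% to 8.65% of all counts with the combination and 0.438% to 0.595% with vehicle. Mitochondrially encoded transcripts took 3.27% to 3.96% with the combination and 3.67% to 4.23% with vehicle. On the first principal component of the 12 MM1.S libraries, which held 82.3% of the variance, the combination libraries lay at 76.1 to 79.3 and the vehicle libraries at -79.0 to -78.8. The libraries of panobinostat alone lay at 66.2 to 76.4 on it and those of CX-5461 alone at -72.1 to -69.8. The summed level of 10 plasma cell markers was 989 to 1119 CPM (counts per 1e6 counts of the library size scaled by its TMM factor) with the combination and 8914 to 9768 CPM with vehicle, with no marker at 0 in all libraries of either group. The sums of 10 markers of T and NK cells were 2.03 to 3.22 CPM with the combination and 0.658 to 0.996 CPM with vehicle. Those of 10 myeloid markers were 3.32 to 4.43 CPM with the combination and 4.17 to 7.68 CPM with vehicle. CD3D and NKG7 were at 0 in all 6 libraries, as were MPO, FCGR3A, S100A8 and AIF1. The other 6 T and NK cell markers at 0 in vehicle had mean levels up to 0.900 CPM (IL7R) with the combination and were not tested. ITGAM, an integrin of myeloid cells, had 0.378, 1.33 and 0.922 CPM with the combination and 0 with vehicle, at least 4.88-fold higher. Stromal and endothelial markers summed to 17.4 to 28.8 CPM with the combination and 26.7 to 28.7 CPM with vehicle, erythroid and megakaryocyte markers to 10.3 to 14.5 CPM with the combination and 20.1 to 23.5 CPM with vehicle. Within these sums single genes moved apart: COL1A1, a collagen chain, averaged 16.9 CPM with the combination and 0.242 CPM with vehicle, and PECAM1, an endothelial adhesion molecule, averaged 3.89 CPM with the combination and 25.5 CPM with vehicle. ITGA2B, a platelet integrin, averaged 2.39 CPM with the combination and had 0 counts with vehicle, and HBB, a globin, averaged 3.54 CPM with the combination and 18.9 CPM with vehicle. The part of other cell types in the results was not tested. Vehicle replicate 2 stood apart in amino acid and stress genes: it was the highest vehicle library for 34 of 37 tested genes of the integrated stress response and for 31 of 49 genes of endoplasmic reticulum chaperones and secretion. Of 125 protein-coding genes between HLA-F and HLA-DPB1 on chromosome 6, 85 had 0 counts in all 12 MM1.S libraries and 1 (HLA-B) was tested, against 508 of 869 (58.5%) on the rest of the chromosome. Other HLA genes, TAP1, PSMB8, TNF and HSPA1A are among those not measured, and the cause was not tested.

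The combination moved most of the expressed transcriptome. Of 12030 genes tested with edgeR's quasi-likelihood F test, 8442 (70.2%) passed an adjusted p under 0.05 and are called here: 4447 (37.0%) higher and 3995 (33.2%) lower with the combination than with vehicle. A list whose shares of called members lie near these shows nothing particular to its members. The median log2 fold change over all tested genes was 0.06. Against the same vehicle libraries, 8399 genes (69.8%) were called with panobinostat alone, 4439 higher and 3960 lower. With CX-5461 alone 2014 (16.7%) were called. Fitted rises were larger than fitted falls: the median size was 1.23 on the log2 scale among genes called higher and 0.97 among genes called lower. Fitted changes of at least 2-fold were found for 2668 genes called higher (22.2%) and 1939 called lower (16.1%). Genes with 0 counts in vehicle are among those called higher, and their fitted values depend on a prior count. These medians and 2-fold counts therefore do not show that rises were truly larger than falls. All 3 combination libraries lay above all 3 vehicle libraries for 4611 genes (38.3%) and below them for 4159 (34.6%). With scaling by library size alone 5178 genes were called higher and 3267 lower, and the median of all genes moved up by 0.17, so a change of that size in a gene or list is not told from the scaling.

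**Figure D1:**
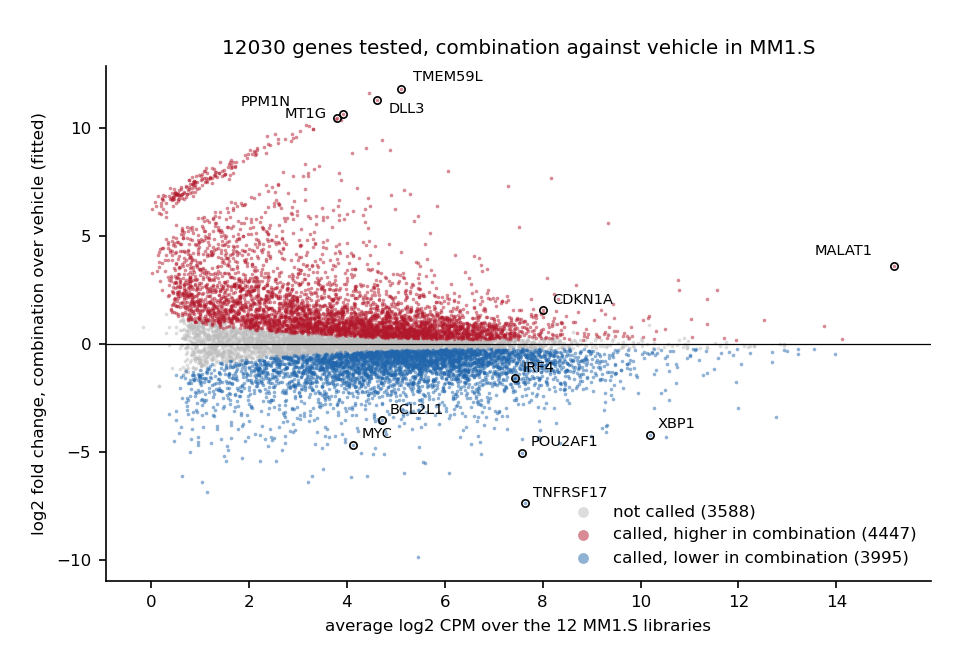
Log2 fold change of the combination over vehicle (vertical axis, fitted by edgeR) against average log2 CPM over the 12 MM1.S libraries (horizontal axis) for 12030 genes, each a point; 4447 called genes are higher, 3995 lower. The diagonal band at the upper left holds genes with 0 counts in vehicle, whose fitted values depend on a prior count and are no measure of size.

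Among genes averaging at least 3 on the log2 CPM scale, the 8 largest fitted rises were all in genes with 0 counts in the 3 vehicle libraries. TMEM59L, a transmembrane protein found mainly in brain, had 62.8, 74.0 and 93.3 CPM with the combination and 0 with vehicle. Its 3 combination libraries were all high, and the level was at least 417-fold that of vehicle, taking 3 counts over the vehicle group as the limit (adjusted p = 2.14e-12). DLL3, an inhibitory Notch ligand of neural and neuroendocrine cells, had 57.1, 50.0 and 55.2 CPM with the combination and 0 with vehicle, at least 293-fold higher. Others were the metallothioneins MT1G (at least 186-fold) and MT1E (at least 156-fold), the phosphatase PPM1N (at least 167-fold), the cell surface proteoglycan GPC2 (at least 159-fold) and the secreted growth regulator CGREF1 (at least 134-fold). CGREF1 had 29.3, 20.1 and 24.9 CPM with the combination, against 16.5, 4.90 and 10.7 CPM with panobinostat alone. These libraries did not overlap, and the combination was higher by 1.22 ± 0.29 on the log2 scale (SE, adjusted p = 0.0224).

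Metallothioneins, small cysteine-rich proteins that bind zinc and copper, were high with the combination. Of 12 listed genes of this family and of zinc sensing, 10 were tested, 9 were called higher and 0 lower. With panobinostat alone 9 of the 10 were called higher than vehicle and 0 lower, beside 36.9% and 32.9% of all genes. MT1G had 40.1, 23.9 and 40.03 CPM with the combination and 0 with vehicle. MT1F had 20.8, 19.3 and 20.7 CPM with the combination and 0.349, 0 and 0.498 CPM with vehicle, a log2 fold change of 5.95 ± 0.43 (adjusted p = 9.12e-12). MT3, the brain metallothionein, had 225 counts over the combination libraries and 2 over the vehicle libraries, a ratio of 110 with a 95% counting interval of 30.04 to 912. MTF1, the zinc-sensing activator of these genes, rose by 0.82 ± 0.14 on the log2 scale, and SLC30A1, the zinc exporter, had 9.65, 11.8 and 12.7 CPM with the combination and 14.7, 10.96 and 15.6 CPM with vehicle, and was not called (adjusted p = 0.192). The metallothionein genes are near-identical, so reads can be shared between them, and 4 of them passed the filter on low counts through the treated groups alone, so the count describes the members and supports nothing more. Several members cluster on chromosome 16, and MT2A and MT1X, picked after their values were seen, had promoter sequences to show. MT2A had 574, 435 and 617 CPM with the combination and 3.31, 2.63 and 1.83 CPM with vehicle. MT1X had 143, 91.1 and 164 CPM with the combination and 0.523, 0.658 and 0.332 CPM with vehicle.

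Zinc-responsive promoters carry metal response elements, so the 200 bases before the RefSeq start (assembly GRCh38.p14) of both genes are shown, 5′ to 3′ on the gene's strand, with capitals at each match to the core TGCACNC or TGCGCNC on either strand. MT2A (chr16:56608384-56608583, plus strand) holds 6 matches and MT1X (chr16:56682270-56682469, plus strand) holds 4.
MT2A: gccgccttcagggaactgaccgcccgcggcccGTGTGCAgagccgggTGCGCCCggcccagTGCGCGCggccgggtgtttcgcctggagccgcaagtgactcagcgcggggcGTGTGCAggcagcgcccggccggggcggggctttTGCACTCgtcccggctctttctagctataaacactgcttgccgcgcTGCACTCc
MT1X: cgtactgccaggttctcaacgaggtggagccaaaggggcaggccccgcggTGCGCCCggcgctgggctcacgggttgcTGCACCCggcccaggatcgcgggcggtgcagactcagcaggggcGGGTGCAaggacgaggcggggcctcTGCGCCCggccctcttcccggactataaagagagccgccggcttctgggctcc
The core is short and common: 25.0% of 27305 genes with a RefSeq promoter hold at least 1 match in the same window. Of the 12 listed genes, 6 had a promoter in the table and 5 of these held a match. It was also found in 48.8% of 41 DNA replication genes, which mostly fell, so a match describes the letters alone.

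The identity genes of plasma cells fell. Of 27 genes of plasma cell and B cell identity, 24 were tested, 22 were called lower and 1 higher, with a median log2 fold change of -2.40. With panobinostat alone 21 of the 24 were called lower than vehicle and 1 higher, beside 32.9% and 36.9% of all genes. TNFRSF17 (NCBI Gene 608), the receptor known as BCMA that sends survival signals to plasma cells and is a target of myeloma immunotherapy, had 2.65, 3.99 and 1.84 CPM with the combination and 523, 474 and 424 CPM with vehicle. The groups were far apart, and the log2 fold change was -7.36 ± 0.18 (adjusted p = 9.22e-21). XBP1 (NCBI Gene 7494), which drives the secretory programme, had 131, 144 and 134 CPM with the combination and 2596, 2336 and 2554 CPM with vehicle. It fell by 4.19 ± 0.12 on the log2 scale (adjusted p = 9.43e-20). POU2AF1, a B cell coactivator of octamer-binding factors, had 9.46, 12.1 and 12.9 CPM with the combination and 351, 379 and 399 CPM with vehicle, and fell by 5.03 ± 0.13. SDC1, the surface proteoglycan CD138 used to sort plasma cells, had 74.9, 83.4 and 74.7 CPM with the combination and 1135, 1180 and 1132 CPM with vehicle, and fell by 3.88 ± 0.12.

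The transcription factors above these genes fell to different depths. IRF4, on which myeloma cells depend, had 92.1, 111 and 94.8 CPM with the combination and 287, 314 and 295 CPM with vehicle, a log2 fold change of -1.58 ± 0.11 (adjusted p = 2.14e-12). It was also below panobinostat alone (141, 175 and 187 CPM) by 0.75 ± 0.11 and below CX-5461 alone (118, 125 and 129 CPM) by 0.32, with adjusted p = 0.000136 and 0.011. PRDM1, the repressor known as BLIMP1, fell by 2.96 ± 0.26, and IKZF1, the lymphoid zinc finger factor that lenalidomide causes to be degraded, fell by 3.24 ± 0.12. CD38, the antigen of daratumumab, was low in both groups, at 3.59, 3.32 and 2.40 CPM with the combination and 6.28, 4.17 and 5.31 CPM with vehicle. Its fall of 0.77 ± 0.29 passed the test (adjusted p = 0.0208) but not without vehicle replicate 1 or combination replicate 3, nor with scaling by library size alone or with DESeq2. POU2F2, an octamer-binding factor of B cells, was the 1 member that rose (0.94 ± 0.12). It and the other exceptions named from small counts below were chosen after their values were seen.

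The other genes with the largest falls had varied roles. FCMR, the receptor for immunoglobulin M, had 1.89, 1.496 and 2.77 CPM with the combination and 130, 139 and 125 CPM with vehicle. CXCR3, a chemokine receptor of lymphocytes, had 0.946, 0.499 and 0.553 CPM with the combination and 48.8, 41.0 and 48.9 CPM with vehicle. PVRIG, an inhibitory receptor for nectin ligands, had 0.189, 0.499 and 0.553 CPM with the combination and 30.003, 37.3 and 28.7 CPM with vehicle. For CXCR3 and PVRIG, with 11 and 7 counts over the combination libraries, these libraries were near the detection limit. A count of 0 in a combination library allows 0.531 to 0.592 CPM. FCMR lay above that limit, with 34 counts over the combination libraries. RNASE6, TMPRSS15 and SYCP3, a secreted ribonuclease, an intestinal protease and a meiotic chromosome protein, fell by 6.13 ± 0.44, 6.41 ± 0.44 and 5.96 ± 0.21. CCL3, a chemokine that myeloma cells secrete, had 0 counts with the combination and 21.5, 25.0 and 15.3 CPM with vehicle, at least 112-fold lower. CCL3 passed the test narrowly (adjusted p = 0.0418), it has near-identical copies that can share its reads, its libraries scattered widely with CX-5461 alone (241, 19.8 and 162 CPM), and its call was lost when any single combination or vehicle library was left out. Of 21 chemokines and receptors, 8 were tested, and 6 were called lower (75%), beside 33.2% of all genes. The receptor CCR1 fell by 5.096 ± 0.16 and CCR2 fell by 5.52 ± 0.22. CXCL16 was the 1 member called higher, and it lost its call without vehicle replicate 1 or 3 or combination replicate 2 or 3.

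**Figure D2:**
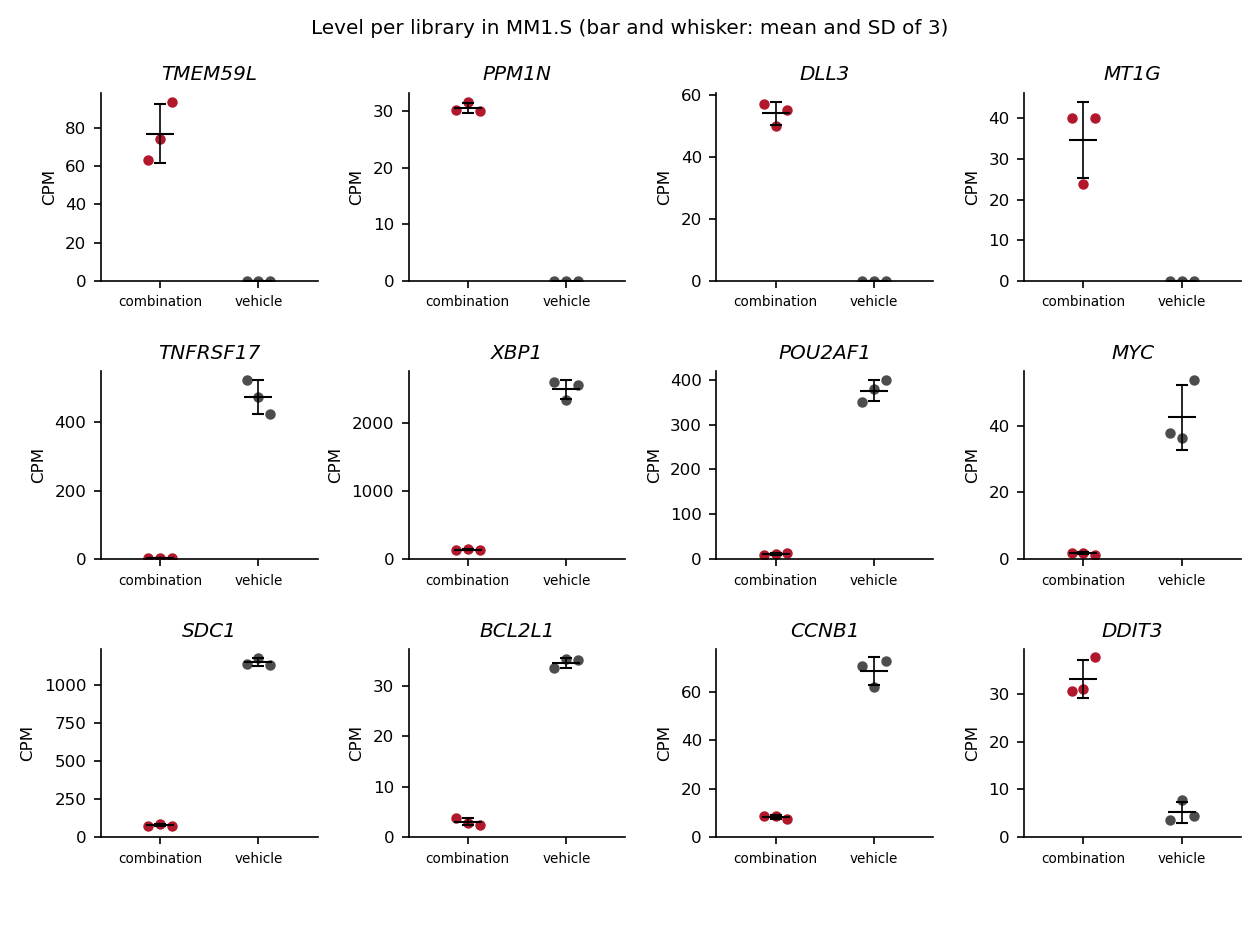
Level in CPM (vertical axis) of 12 genes in each of the 3 combination libraries (left) and 3 vehicle libraries (right) of MM1.S; points are libraries, bars and whiskers the mean and SD. The groups do not overlap for any of these genes, and TMEM59L, PPM1N, DLL3 and MT1G are at 0 in vehicle.

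MYC and its growth programme were lower with the combination. MYC (NCBI Gene 4609), the transcription factor that drives ribosome production and cell growth in myeloma, had 1.89, 1.83 and 1.29 CPM with the combination and 37.7, 36.2 and 53.8 CPM with vehicle. It fell by 4.66 ± 0.27 on the log2 scale (adjusted p = 7.26e-14). MYC had 2.21, 4.73 and 3.76 CPM with panobinostat alone and 15.8, 23.5 and 22.2 CPM with CX-5461 alone, and the combination was not told apart from panobinostat (adjusted p = 0.0969). Of 11 tested genes of the MYC network, 5 were called higher (45.5%) and 4 lower (36.4%), near the 37.0% and 33.2% of all genes. Without vehicle replicate 2, 2 were called lower. MXD1, which competes with MYC for its partner MAX, rose by 2.58 ± 0.14, and MXI1 of the same family by 0.96 ± 0.14. Of 46 MYC target genes, 43 were tested, 40 were called lower and 0 higher, with a median of -1.20. Scaling by library size alone, at least 10 CPM in 3 libraries, limma-voom or a replicate block gave 1 called higher. So did the 6 libraries alone or leaving out combination replicate 2. With panobinostat alone 41 of the 43 were called lower than vehicle and 1 higher, beside 32.9% and 36.9% of all genes. CCND2, the D-type cyclin of this line, had 133, 147 and 153 CPM with the combination and 1149, 1239 and 1188 CPM with vehicle. It fell by 3.04 ± 0.11. MRTO4, a ribosome assembly factor, fell by 2.58 ± 0.15 and HSPE1, the mitochondrial chaperonin 10, by 1.79 ± 0.11.

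Ribosome assembly genes followed the same direction. Of 68 genes of ribosome biogenesis, 64 were tested, 54 were called lower and 1 higher, with a median of -0.87. The 1 called higher became 3 with scaling by library size alone or at least 10 CPM in 3 libraries. It became 2 with a replicate block or the 6 libraries alone. In the fit reported the 1 member that rose was DDX10, a helicase of small subunit assembly. It was not called without vehicle replicate 1 or without combination replicate 1 or 3. NCL, the main nucleolar RNA-binding protein nucleolin, had 333, 299.7 and 323 CPM with the combination and 857, 1031 and 1073 CPM with vehicle, and fell by 1.63 ± 0.11. NOP16, a nucleolar factor of the large subunit, fell by 1.97 ± 0.13, and NOP56, a core protein of the box C/D particles that methylate ribosomal RNA, by 1.64 ± 0.13. NOP56 had 77.2, 66.3 and 88.5 CPM with the combination, against 65.0, 44.0 and 52.0 CPM with panobinostat alone, and was higher by 0.53 ± 0.14 (adjusted p = 0.0265).

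The RNA polymerase I machinery, on which CX-5461 acts, was split. Of 22 genes, 20 were tested, 8 were called lower and 4 higher (7 higher with scaling by library size alone), beside 33.2% and 37.0% of all genes. UBTF, the factor that keeps ribosomal RNA genes open, had 31.4, 38.6 and 46.3 CPM with the combination and 155, 195 and 194 CPM with vehicle. Its groups did not overlap, and it fell by 2.22 ± 0.13 (adjusted p = 2.05e-13). POLR1A, the largest subunit of the enzyme, fell by 1.18 ± 0.22 and POLR1C, a subunit shared with RNA polymerase III, by 0.95 ± 0.13. TAF1C, a subunit of the promoter selectivity factor, rose by 1.08 ± 0.14. RRN3, an initiation factor of the enzyme, had 6 counts over the combination libraries and 2 over the vehicle libraries. The ratio was 2.93 with a 95% counting interval of 0.524 to 29.7, and RRN3 was not tested. Ribosomal RNA itself is left out by polyA selection. Of 50 cytosolic ribosomal protein genes, 49 were tested, 9 were called higher (18.4%) and 17 lower (34.7%), beside 37.0% and 33.2% of all genes. With scaling by library size alone the counts turned to 14 and 7, and without vehicle replicate 3 the 9 became 5. RPS2 had 627, 490 and 546 CPM with the combination and 404, 356 and 394 CPM with vehicle, while RPSA had 439, 430 and 429 CPM with the combination and 863, 670 and 710 CPM with vehicle. Host genes of small nucleolar RNAs were also split, with 3 of 17 called higher (17.6%) and 9 lower (52.9%), or 5 and 5 with scaling by library size alone.

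Genes of mitosis fell almost without exception. Of 50 listed, 49 were tested, 46 were called lower and 0 higher, with a median of -1.66. With panobinostat alone 44 of the 49 were called lower than vehicle and 0 higher, beside 32.9% and 36.9% of all genes. CCNB1, the cyclin that triggers entry into mitosis, had 8.70, 8.81 and 7.38 CPM with the combination and 71.0, 62.3 and 73.0 CPM with vehicle. It fell by 3.05 ± 0.17 (adjusted p = 7.26e-14) and lay below panobinostat alone (21.9, 20.7 and 19.0 CPM) by 1.30 ± 0.19 (adjusted p = 0.000182). FOXM1, the transcription factor of late cell cycle genes, had 8.70, 9.64 and 10.1 CPM with the combination and 110, 93.4 and 105 CPM with vehicle. It fell by 3.44 ± 0.13. UBE2C, the ubiquitin-conjugating enzyme of the anaphase-promoting complex, fell by 2.90 ± 0.13, and CKS1B, a cofactor of cyclin-dependent kinases that is often amplified in myeloma, by 1.85 ± 0.10. TOP2A, the topoisomerase of dividing cells, had 378, 320 and 385 CPM with the combination and 858, 908 and 871 CPM with vehicle, and fell by 1.28 ± 0.11. TOP2B, its form in non-dividing cells, fell by 0.80 ± 0.10.

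Promoters of late cell cycle genes are known to carry the cell cycle homology region, CHR, and CCAAT boxes. The 200 bases before the RefSeq start (GRCh38.p14) of 3 of these genes are shown for that reason, with capitals at each match to TTTGAA (CHR) or CCAAT on either strand. TOP2A (chr17:40417897-40418096, minus strand) holds 2 CHR and 3 CCAAT matches. CKS1B (chr1:154974481-154974680, plus strand) holds 1 and 4, and CCNB1 (chr5:69166950-69167149, plus strand) holds 0 and 2.
TOP2A: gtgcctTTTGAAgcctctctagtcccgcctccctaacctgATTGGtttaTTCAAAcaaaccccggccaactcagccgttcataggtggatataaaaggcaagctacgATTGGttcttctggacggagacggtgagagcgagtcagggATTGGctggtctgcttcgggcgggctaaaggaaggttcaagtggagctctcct
CKS1B: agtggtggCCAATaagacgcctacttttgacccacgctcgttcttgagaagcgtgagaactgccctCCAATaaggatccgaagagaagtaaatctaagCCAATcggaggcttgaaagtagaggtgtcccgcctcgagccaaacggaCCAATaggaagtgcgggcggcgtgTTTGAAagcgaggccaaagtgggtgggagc
CCNB1: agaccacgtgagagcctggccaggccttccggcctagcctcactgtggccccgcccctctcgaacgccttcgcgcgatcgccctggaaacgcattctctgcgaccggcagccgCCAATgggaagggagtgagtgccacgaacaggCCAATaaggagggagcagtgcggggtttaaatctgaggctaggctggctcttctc
A CHR match was found for 21 of 43 mitosis genes with a promoter (48.8%), for 1 of 41 DNA replication genes (2.44%) and for 12.6% of all 27305 genes. CCAAT was found for 34 of the 43 (79.1%), for 22 of the 41 (53.7%) and for 32.7% of all genes.

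Genes of DNA replication were lower than with vehicle but in part above panobinostat alone. Of 49, 48 were tested, 36 were called lower and 6 higher, with a median of -0.92. E2F2, a transcription factor of S phase entry, had 12.5, 15.1 and 20.8 CPM with the combination and 249, 218 and 280 CPM with vehicle, and fell by 3.95 ± 0.15. FEN1, which trims Okazaki fragments, had 164, 143 and 179 CPM with the combination and 695, 601 and 694 CPM with vehicle. It fell by 2.03 ± 0.11 and was above panobinostat alone (138, 113 and 120 CPM) by 0.39 ± 0.11 (adjusted p = 0.0362). RRM1, the large subunit of ribonucleotide reductase, fell by 1.90 ± 0.10. In the direct test against panobinostat, 17 of the 48 were called higher with the combination and 0 lower, beside 2.44% and 1.65% of all genes. E2F1 was among the genes above panobinostat, by 0.92 ± 0.24 (adjusted p = 0.0454), and had 32.7, 26.1 and 48.1 CPM with the combination, 24.7, 12.4 and 19.6 CPM with panobinostat and 83.7, 72.4 and 85.6 CPM with vehicle. Of 48 DNA repair genes, 23 were called lower than with vehicle (47.9%) and 7 higher (14.6%), beside 33.2% and 37.0% of all genes. XRCC5, the Ku80 subunit of end joining, fell by 1.35 ± 0.09. PARP1, the sensor of strand breaks, fell by 1.25 ± 0.10.

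The targets of p53 did not move as a block. Of 52 listed, 50 were tested, 19 were called higher and 12 lower with the combination (38.0% and 24.0%, beside 37.0% and 33.2% of all genes), with a median of 0.26. With CX-5461 alone 40 of the same 50 were called higher than vehicle and 1 lower, beside 9.68% and 7.06% of all genes (16.7% in all). With panobinostat alone the counts were 21 and 16, beside 36.9% and 32.9% of all genes (69.8% in all). These 3 comparisons share their vehicle libraries. In the direct test of the combination against CX-5461 alone, 38 of the 50 were called lower and 4 higher, beside 33.9% and 35.9% of all genes, with a median of -1.13. Against panobinostat alone, 8 of the 50 were called higher and 1 lower, beside 2.44% and 1.65% of all genes.

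Single p53 targets differed. CDKN1A, the p21 inhibitor of cyclin-dependent kinases, had 132, 130 and 151 CPM with the combination, 131, 88.3 and 111 CPM with panobinostat, 680, 767 and 756 CPM with CX-5461 and 47.4, 38.8 and 51.8 CPM with vehicle. It rose by 1.58 ± 0.13 over vehicle (adjusted p = 8.61e-11) and was 2.41 below CX-5461 alone on the log2 scale (adjusted p = 1.11e-14). MDM2 had 470, 396 and 554 CPM with the combination, 144, 185 and 215 CPM with panobinostat, 1378, 1509 and 1458 CPM with CX-5461 and 346, 290 and 405 CPM with vehicle. The combination and vehicle overlapped, and the rise of 0.45 ± 0.14 (adjusted p = 0.00731) was not called without vehicle replicate 2 (0.30, adjusted p = 0.0745) or combination replicate 3 (0.29, adjusted p = 0.0803). Against panobinostat alone MDM2 was higher by 1.38 ± 0.14 (adjusted p = 1.18e-05).

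PHLDA3, which restrains the kinase AKT, had 8.51, 7.65 and 9.41 CPM with the combination, 2.41, 2.28 and 3.39 CPM with panobinostat, 311, 330 and 309.8 CPM with CX-5461 and 13.4, 17.3 and 27.9 CPM with vehicle. It fell below vehicle by 1.21 ± 0.21 with the combination (adjusted p = 1.7e-05). DDB2, a sensor of ultraviolet damage, had 31.0, 23.6 and 31.4 CPM with the combination and 33.8, 30.04 and 35.0 CPM with vehicle. It was not called (adjusted p = 0.131), but was called lower without vehicle replicate 2 (-0.31, adjusted p = 0.0457), against 188, 197 and 199 CPM with CX-5461 alone. Other targets were not below their level with CX-5461 alone. ZMAT3, an RNA-binding zinc finger protein, had 71.5, 80.1 and 73.0 CPM with the combination and 6.80, 7.89 and 8.79 CPM with vehicle, and lay above CX-5461 alone by 1.49 (adjusted p = 1.61e-11). TNFRSF10B, the death receptor DR5, had 107, 86.6 and 115 CPM with the combination and 18.5, 17.5 and 24.1 CPM with vehicle. It was not told apart from CX-5461 alone (adjusted p = 0.459). It rose by 2.35 ± 0.14 over vehicle and was above panobinostat alone by 0.53 ± 0.13 (adjusted p = 0.0159).

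**Figure D3:**
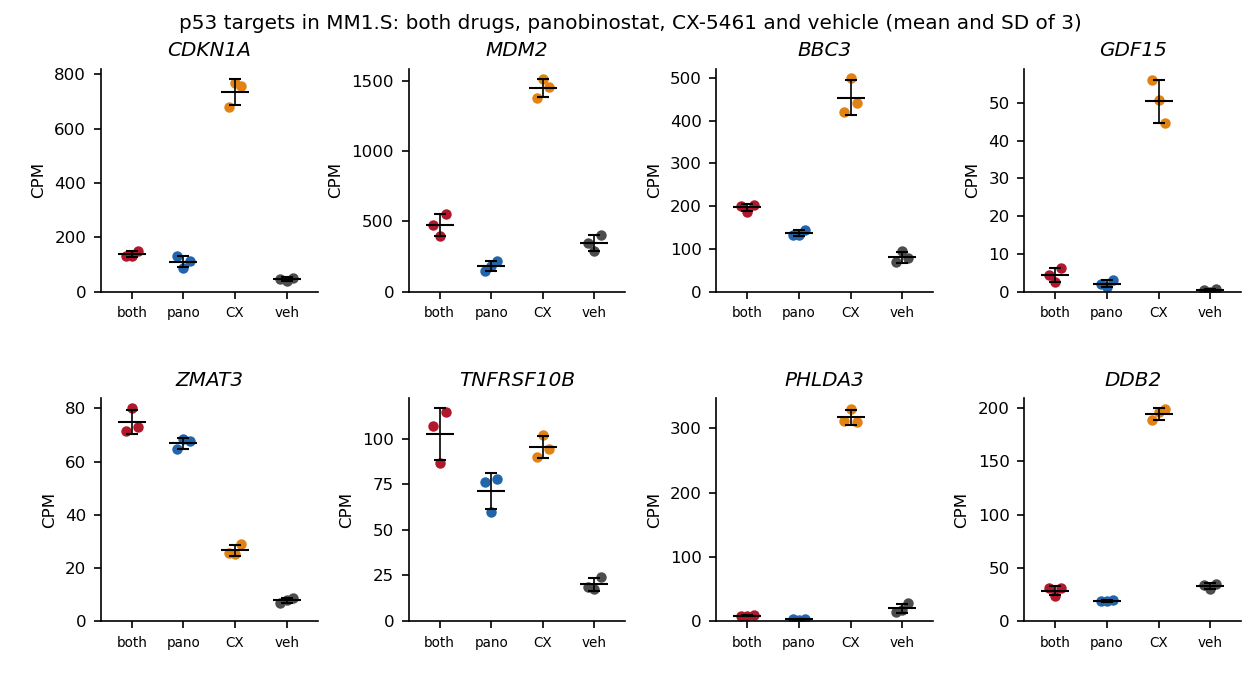
Level in CPM (vertical axis) of 8 p53 target genes in MM1.S libraries of both drugs, panobinostat (pano), CX-5461 (CX) and vehicle (veh); points are libraries, bars and whiskers the mean and SD of 3. CDKN1A, MDM2, BBC3, GDF15, PHLDA3 and DDB2 are highest with CX-5461 alone, ZMAT3 with both drugs or panobinostat.

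Genes that control apoptosis moved in both directions. Of 11 pro-apoptotic BCL2 family genes, 9 were tested, 5 were called higher (55.6%) and 2 lower (22.2%), beside 37.0% and 33.2% of all genes. BBC3, the activator PUMA, had 201, 187 and 202 CPM with the combination, 133, 133 and 145 CPM with panobinostat, 420, 499 and 440 CPM with CX-5461 and 69.3, 94.3 and 78.3 CPM with vehicle. It rose by 1.29 ± 0.11 and was above panobinostat alone by 0.52 ± 0.11 (adjusted p = 0.00506). BCL2L11, the activator BIM, rose by 0.96 ± 0.17 and BMF, which binds dynein light chains, by 1.11 ± 0.13, while BID, which caspase 8 cleaves, fell by 2.24 ± 0.14. Of 9 anti-apoptotic genes tested, 6 were called lower (66.7%) and 3 higher (33.3%). BCL2L1, which encodes BCL-XL, had 3.78, 2.83 and 2.40 CPM with the combination, 4.83, 5.43 and 6.78 CPM with panobinostat, 51.8, 64.5 and 56.4 CPM with CX-5461 and 33.5, 35.3 and 35.2 CPM with vehicle. It fell by 3.52 ± 0.19 and lay below panobinostat alone by 0.92 ± 0.25 (adjusted p = 0.0306). BCL2 fell by 1.53 ± 0.16 and BIRC5, the survivin of dividing cells, by 2.51 ± 0.15. MCL1, the survival factor on which many myelomas depend, had 819, 927 and 858 CPM with the combination, 1080, 1179 and 1124 CPM with panobinostat and 628, 625 and 585 CPM with vehicle. It rose by 0.50 ± 0.09 and was below panobinostat alone by 0.38 ± 0.09 (adjusted p = 0.0166).

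Of 15 death receptors and caspases tested, 11 were called lower (73.3%) and 3 higher (20%), beside 33.2% and 37.0% of all genes. TNFRSF1A, the main receptor of tumour necrosis factor, had 19.7, 22.9 and 19.9 CPM with the combination and 113, 118 and 140 CPM with vehicle, and fell by 2.56 ± 0.12. CASP10, an initiator caspase, fell by 1.67 ± 0.14. CFLAR, its inhibitory relative, counted above among the anti-apoptotic genes and not among these 15, fell by 1.94 ± 0.15. FAS, the receptor of FAS ligand, was at 0.946, 0.665 and 0.369 CPM with the combination and 2.79, 1.53 and 2.32 CPM with vehicle, against 11.6, 14.96 and 11.8 CPM with CX-5461 alone. The 3 that rose were TNFRSF10B, CASP9 (1.59 ± 0.21), the initiator caspase of the mitochondrial route, and APAF1 (3.21 ± 0.44), which activates it. Of 5 CDK inhibitors tested, 3 were called higher (60%) and 2 lower (40%), beside 37.0% and 33.2% of all genes. CDKN2D, which encodes p19, had 213, 190 and 205 CPM with the combination and 52.2, 50.4 and 43.0 CPM with vehicle, and rose by 2.06 ± 0.10. CDKN1B, which encodes p27, had 52.0, 63.7 and 47.96 CPM with the combination and 256, 245 and 237 CPM with vehicle, and fell by 2.17 ± 0.13.

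Among HDAC genes themselves, 6 of 11 were called higher (54.5%) and 3 lower (27.3%), beside 37.0% and 33.2% of all genes. HDAC11, the only class IV enzyme, had 21.6, 18.5 and 21.2 CPM with the combination and 0.523, 1.32 and 0.664 CPM with vehicle. It rose by 4.64 ± 0.28 (adjusted p = 2.08e-13). HDAC3, the class I enzyme of nuclear corepressors, had 442, 448 and 444 CPM with the combination and 222, 219 and 220 CPM with vehicle, and rose by 1.01 ± 0.09. HDAC6, the tubulin deacetylase, rose by 1.101 ± 0.12. HDAC7, a class II enzyme of lymphoid cells named after its values were seen, fell by 2.60 ± 0.30.

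Linker and replacement histone genes were mostly higher: of 20 listed, 16 were tested, 10 were called higher (62.5%) and 4 lower (25%). Among all genes the shares were 37.0% and 33.2%. H1-5, MACROH2A2, H2BC4 and H2AC6 were not tested. H3-3B, a gene of the replacement histone H3.3, had 5676, 5140 and 5043 CPM with the combination and 921, 911 and 955 CPM with vehicle, and rose by 2.51 ± 0.10. H2AJ, a variant that accumulates in senescent cells, rose by 2.92 ± 0.17, and H2AZ1, the H2A.Z variant of promoters, fell by 1.35 ± 0.09. Of 13 tested genes of P-TEFb and the BET proteins, 4 were called higher (30.8%) and 3 lower (23.1%), near or below the shares of all genes. HEXIM1, which holds the elongation factor P-TEFb inactive and serves as a marker of its release, had 111, 130 and 108 CPM with the combination and 35.2, 41.2 and 40.8 CPM with vehicle. It rose by 1.58 ± 0.13, whereas MEPCE, another part of the inactive complex, fell by 1.24 ± 0.11.

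Of 41 neuronal genes, 24 were tested, 20 were called higher and 3 lower. Since 6 of them had 0 counts in vehicle and passed the filter through treated groups, and 11 were called higher with a minimum of 10 CPM, these counts describe the members and support nothing more. With the same limit, 20 of the 24 were called higher than vehicle with panobinostat alone and 2 lower, beside 36.9% and 32.9% of all genes. SYT11, a vesicle protein, had 109, 125 and 114 CPM with the combination and 1.74, 1.75 and 0.664 CPM with vehicle, and rose by 6.402 ± 0.19. MAP2, the microtubule-associated protein of dendrites, had 131, 127 and 146 CPM with the combination, 172, 183 and 203 CPM with panobinostat and 21.5, 20.4 and 17.9 CPM with vehicle. It rose by 2.76 ± 0.13 and was below panobinostat alone by 0.47 ± 0.11 (adjusted p = 0.0153). Of 25 immediate early genes, 20 were tested, 14 were called higher (70%) and 4 lower (20%), beside 37.0% and 33.2% of all genes. MYC was among those that fell, and 2 of the 20 had 0 counts in vehicle and entered through treated groups. NR4A2, an orphan nuclear receptor, had 39.9, 35.2 and 36.7 CPM with the combination, 23.5, 21.7 and 20.7 CPM with panobinostat and 0.349, 0.877 and 0.498 CPM with vehicle. It rose by 6.02 ± 0.27 and was above panobinostat alone by 0.76 ± 0.15 (adjusted p = 0.00467). JUN, a subunit of AP-1, had 575, 559 and 537 CPM with the combination, 315, 334 and 289 CPM with CX-5461 and 70.8, 108 and 72.5 CPM with vehicle, and rose by 2.74 ± 0.13. IER2 rose by 4.08 ± 0.13.

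Of 4 tested long noncoding RNAs kept in the nucleus, 3 were called higher and 1 lower. MALAT1 had 70340, 63177 and 82716 CPM with the combination and 4767, 6386 and 6233 CPM with vehicle, and rose by 3.64 ± 0.12 (adjusted p = 1.81e-17). NEAT1, the scaffold of paraspeckles, had 2139, 3703 and 4174 CPM with the combination and 668, 781 and 908 CPM with vehicle, and rose by 2.09 ± 0.36. KCNQ1OT1, an imprinted antisense transcript, rose by 1.60 ± 0.18, and OIP5-AS1 fell by 1.33 ± 0.14. Strand use in counting is not given in the sources used here, so reads of an antisense gene and its partner cannot be told apart.

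Stress genes had no common direction. DDIT3, the transcription factor CHOP of the integrated stress response, had 30.7, 31.1 and 37.6 CPM with the combination, 15.1, 14.5 and 20.0 CPM with panobinostat, 38.6, 46.0 and 37.2 CPM with CX-5461 and 3.49, 7.67 and 4.31 CPM with vehicle. It rose by 2.72 ± 0.21 (adjusted p = 2.19e-11) and was above panobinostat alone by 1.00 ± 0.17 (adjusted p = 0.0013). ATF4, the factor above it, had 225, 199 and 255 CPM with the combination and 281, 729 and 267 CPM with vehicle. Vehicle replicate 2 was far above the rest, and the fall of 0.91 ± 0.36 only just passed the test (adjusted p = 0.0488) and was lost without any 1 of the combination libraries. Of 37 genes of this response tested, 19 were called lower (51.4%) and 5 higher (13.5%), beside 33.2% and 37.0% of all genes. Without vehicle replicate 2 the counts were 16 and 13. SLC1A5, the glutamine transporter, had 65.1, 53.03 and 70.1 CPM with the combination and 338, 508 and 347 CPM with vehicle, and SHMT2, an enzyme of mitochondrial serine use, fell by 1.24 ± 0.13.

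The secretory pathway and the proteasome were lower. Of 49 tested genes of endoplasmic reticulum chaperones and secretion, 41 were called lower and 1 higher, with a median of -0.87. The 1 called higher became 3 with scaling by library size alone and 2 with at least 10 CPM in 3 libraries. HSPA5, the chaperone BiP, had 597, 556 and 593 CPM with the combination and 1489, 1967 and 1604 CPM with vehicle, and fell by 1.53 ± 0.12. KDELR1, which returns chaperones to the endoplasmic reticulum, had 308, 315 and 327 CPM with the combination and 949, 1111 and 974 CPM with vehicle. SPCS1, a subunit of the signal peptidase, fell by 1.56 ± 0.11, and SPCS2, another, fell by 2.17 ± 0.12. In the fit reported the 1 member that rose was ERO1B, an oxidase of disulfide formation (2.80 ± 0.23). Of 29 proteasome genes tested, 24 were called lower (82.8%) and 1, PSMD6 of the regulatory cap, higher (3.45%). PSMB5, the catalytic subunit that bortezomib blocks, had 60.4, 49.0 and 56.4 CPM with the combination and 167, 147 and 157 CPM with vehicle, and fell by 1.51 ± 0.10. Of 16 cytosolic heat shock chaperones tested, 9 were called lower (56.2%) and 3 higher (18.8%), beside 33.2% and 37.0% of all genes. Without vehicle replicate 3, 1 was called higher. HSPH1 fell by 1.47 ± 0.14 and HSPB1, the small heat shock protein HSP27, rose by 1.26 ± 0.12.

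Of 40 lysosome and autophagy genes, 36 were tested, 22 were called higher, 3 lower and 11 not called, beside 37.0% higher and 33.2% lower among all genes, with a median of 0.55. ATG2A, which feeds lipid to the growing autophagosome, had 199, 212 and 221 CPM with the combination and 47.4, 59.6 and 52.9 CPM with vehicle, and rose by 1.98 ± 0.11. LAMP2, a lysosomal membrane protein, had 466, 483 and 469 CPM with the combination and 204, 172 and 193 CPM with vehicle, and rose by 1.32 ± 0.09. GABARAPL2, of the ATG8 family, rose by 1.08 ± 0.09.

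Genes of energy metabolism were mostly lower. Of 46 genes of oxidative phosphorylation, 30 were called lower (65.2%) and 2 higher (4.35%), beside 33.2% and 37.0% of all genes. Replicate 1 was the highest library of its group for 37 of the 46 in vehicle and for 33 in the combination. The 2 called higher became 5 with scaling by library size alone, and 1 without vehicle replicate 2 or combination replicate 1 or 2. NDUFV2, a complex I subunit, had 152, 144 and 141 CPM with the combination and 645, 601 and 594 CPM with vehicle, and fell by 2.08 ± 0.10. ATP5MC2, of the membrane ring of ATP synthase, fell by 1.47 ± 0.09 and was below panobinostat alone by 0.57 ± 0.09 (adjusted p = 0.000463). Of 20 glycolysis genes tested, 12 were called lower (60%) and 2 higher (10%). PDK1, the kinase that closes pyruvate dehydrogenase, had 71.5, 70.8 and 63.3 CPM with the combination and 562, 492 and 499 CPM with vehicle, and fell by 2.92 ± 0.13. ENO1, an enolase, fell by 1.45 ± 0.11 and HK1, a hexokinase, rose by 1.91 ± 0.11. Of 23 genes of cholesterol synthesis and uptake tested, 14 were called lower (60.9%) and 4 higher (17.4%). The 4 became 2 with DESeq2, without vehicle replicate 2 or without combination replicate 1 or 3.

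Lists of immune signalling had called shares near those of all genes (37.0% higher and 33.2% lower). Of 41 interferon-stimulated genes, 29 were tested, 13 were called higher (44.8%) and 7 lower (24.1%). IFI6, a mitochondrial protein of the interferon response, rose by 3.14 ± 0.17, while ISG20, an exonuclease also found in plasma cells, had 15.5, 17.0 and 14.4 CPM with the combination and 160, 196 and 122 CPM with vehicle. Of 18 NF-kB subunits and targets tested, 8 were called higher (44.4%) and 5 lower (27.8%). REL, a subunit, had 23.7, 29.8 and 24.7 CPM with the combination and 2.44, 1.096 and 1.49 CPM with vehicle, and rose by 3.91 ± 0.28, whereas NFKB1, which encodes p105 and p50, fell by 2.24 ± 0.13. TNFAIP2 had 105 counts over the combination libraries and 2 over the vehicle libraries, a ratio of 51.2 with a 95% counting interval of 13.8 to 429.

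Antigen presentation could hardly be read inside the HLA region, where HLA-B, a class I heavy chain, was the 1 gene tested. It had 1.51, 39.4 and 1.66 CPM with the combination and 1.92, 2.19 and 1.99 CPM with vehicle, with combination replicate 2 far above the rest, and was not called (adjusted p = 0.124). CIITA, the master regulator of class II genes, and CD74, the invariant chain, were not called: CD74 had 342, 338 and 316 CPM with the combination and 406, 430 and 306 CPM with vehicle, and was called lower without vehicle replicate 3. Of 8 tested genes of class I presentation, 4 were called lower (50%) and 1 higher (12.5%), beside 33.2% and 37.0% of all genes. PSMB10, a subunit of the immunoproteasome, had 22.5, 21.4 and 25.6 CPM with the combination and 262, 255 and 247 CPM with vehicle, and fell by 3.46 ± 0.12. Of 14 ligands of receptors on natural killer (NK) cells, 7 were tested, 4 were called higher (57.1%) and 2 lower (28.6%). NECTIN2, a ligand of the activating receptor DNAM-1, had 12.9, 14.8 and 18.3 CPM with the combination and 0.349, 0.219 and 0.166 CPM with vehicle, and rose by 5.85 ± 0.38. PVR, the other ligand of DNAM-1, had 29.1, 27.1 and 34.5 CPM with the combination and 72.4, 65.1 and 79.8 CPM with vehicle, and fell by 1.26 ± 0.12.

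**Figure D4:**
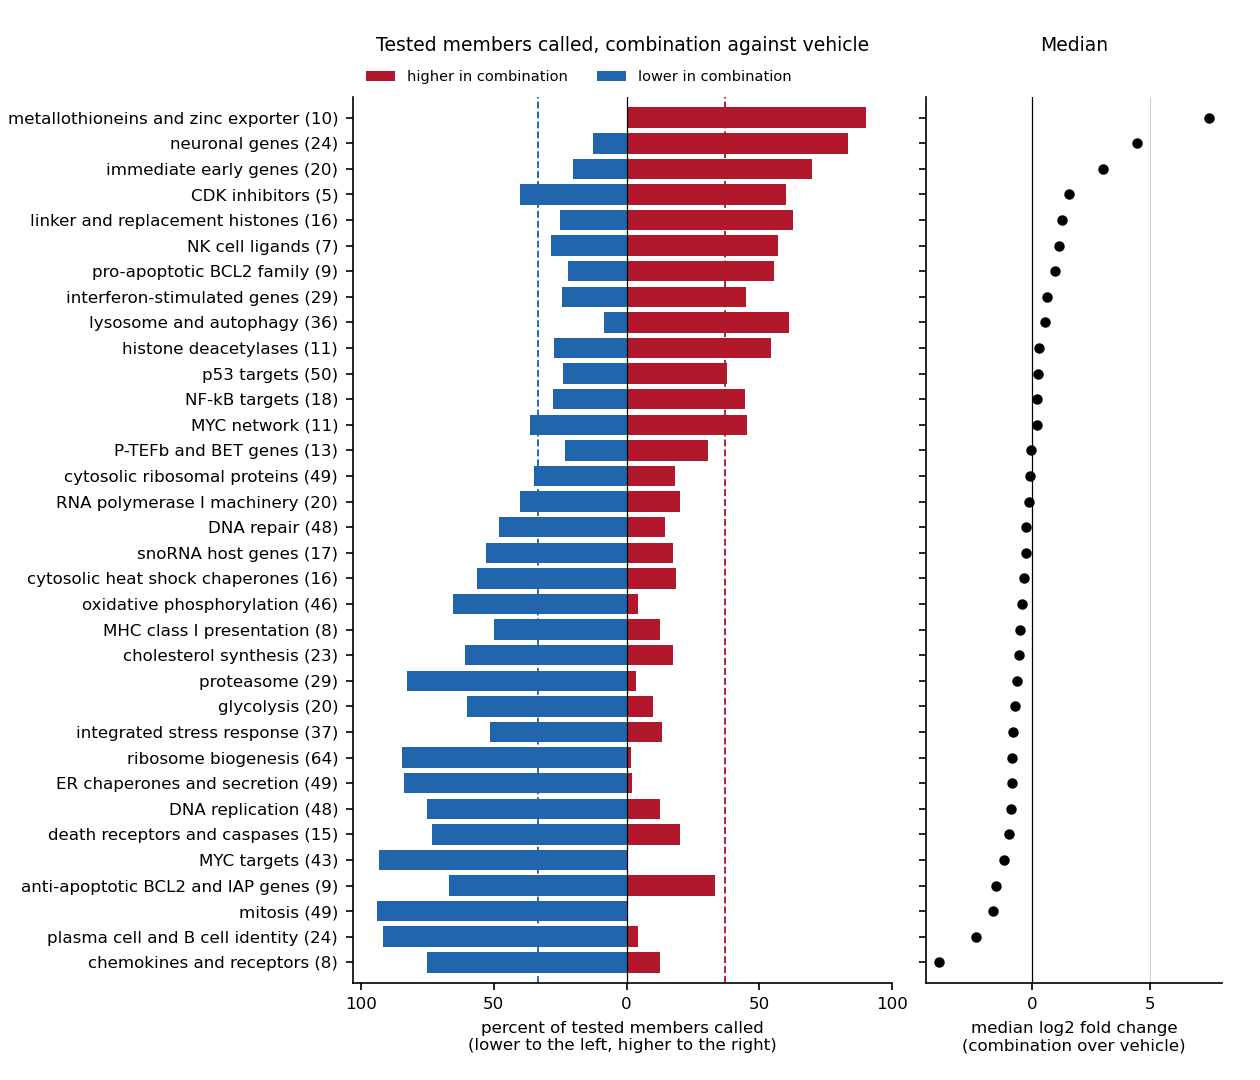
Percent of tested members called higher (right, red) and lower (left, blue) with the combination than with vehicle in lists with at least 5 tested members (number tested in brackets), ordered by the median log2 fold change of the members shown at the right. Dashed lines mark all genes, 37.0% higher and 33.2% lower. Metallothioneins lie at the top, chemokines and receptors and plasma cell identity at the bottom.

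The combination was set directly against each drug alone. Against CX-5461, 8393 genes (69.8%) were called, 4320 (35.9%) higher and 4073 (33.9%) lower. Against panobinostat 491 genes (4.08%) were called, 293 (2.44%) higher and 198 (1.65%) lower, with fitted changes of 2-fold or more for 65 (0.540%) and 18 (0.150%). With scaling by library size alone 72.8% of the genes called against panobinostat were higher, in place of 59.7%. The count of 491 depended on single libraries: it was 1177, 229 and 175 without panobinostat replicate 1, 2 and 3, and 197 and 215 without combination replicate 1 and 3. A gene not called against panobinostat is therefore not shown to have the same level. Beside the DNA replication genes above, 10 of 49 mitosis genes were called lower with the combination than with panobinostat and 2 higher, and 4 of 24 plasma cell identity genes were called lower and 0 higher, POU2AF1 by 0.62 ± 0.14 (adjusted p = 0.0133). Among genes of ribosome biogenesis, 6 of 64, and among those of the RNA polymerase I machinery, 6 of 20 were called higher than with panobinostat and 0 lower. POLR1C was higher by 0.56 ± 0.14 (adjusted p = 0.0226), with 27.4, 29.6 and 34.9 CPM in combination libraries, against 22.7, 17.7 and 22.2 CPM in panobinostat libraries.

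In the p53 null line JJN3 the same combination could be compared over 10 genes listed for it. The difference of the effects, JJN3 minus MM1.S, was called for 4223 of 12872 genes (32.8%) in 1 fit of all 24 libraries, 2422 above 0 (18.8%) and 1801 below (14.0%). The 2 directions were nearly even with other scalings, at 2165 and 2012 with DESeq2 size factors and 2127 and 2033 with library size alone. TNFRSF17 fell by 7.36 ± 0.18 in MM1.S and by 1.86 ± 0.18 in JJN3, where it had 24.9, 24.6 and 27.6 CPM with the combination and 114, 66.7 and 99.9 CPM with vehicle. The difference of 5.50 ± 0.30 was called (adjusted p = 3.92e-14). MYC fell by 4.66 ± 0.27 in MM1.S and by 1.17 ± 0.23 in JJN3, a difference of 3.49 ± 0.45 (adjusted p = 2.06e-06). IRF4 fell by 1.58 ± 0.11 in MM1.S and by 1.26 ± 0.14 in JJN3, and the difference of 0.33 ± 0.20 was not called (adjusted p = 0.203).

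The p53 targets did not all differ between the lines. CDKN1A had 122.97, 106 and 92.3 CPM with the combination and 22.2, 29.2 and 26.6 CPM with vehicle in JJN3, a rise of 2.04 ± 0.17. Beside the rise of 1.58 ± 0.13 in MM1.S, the difference of 0.47 ± 0.23 was not called (adjusted p = 0.128). MDM2 rose in MM1.S and had a log2 fold change of -0.38 ± 0.16 in JJN3 (adjusted p = 0.0544), a difference of -0.82 ± 0.22 (adjusted p = 0.00372). BBC3 rose by 1.29 ± 0.11 in MM1.S and fell by 0.49 ± 0.16 in JJN3, a difference of -1.77 ± 0.23 (adjusted p = 8.47e-07). PHLDA3 fell by 1.21 ± 0.21 in MM1.S and rose by 1.74 ± 0.51 in JJN3 at levels of 1.28, 1.98 and 2.24 CPM with the combination and 0.599, 0.180 and 0.759 CPM with vehicle, a difference of 2.95 ± 0.54 (adjusted p = 7.11e-05). GDF15, a secreted stress cytokine, and DDB2 were not called different (adjusted p = 0.406 and 0.540). DDIT3 rose by 2.72 ± 0.21 in MM1.S and was not called in JJN3 (-0.28 ± 0.25, adjusted p = 0.376), a difference of -2.99 ± 0.33 (adjusted p = 2.44e-08).

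**Figure D5:**
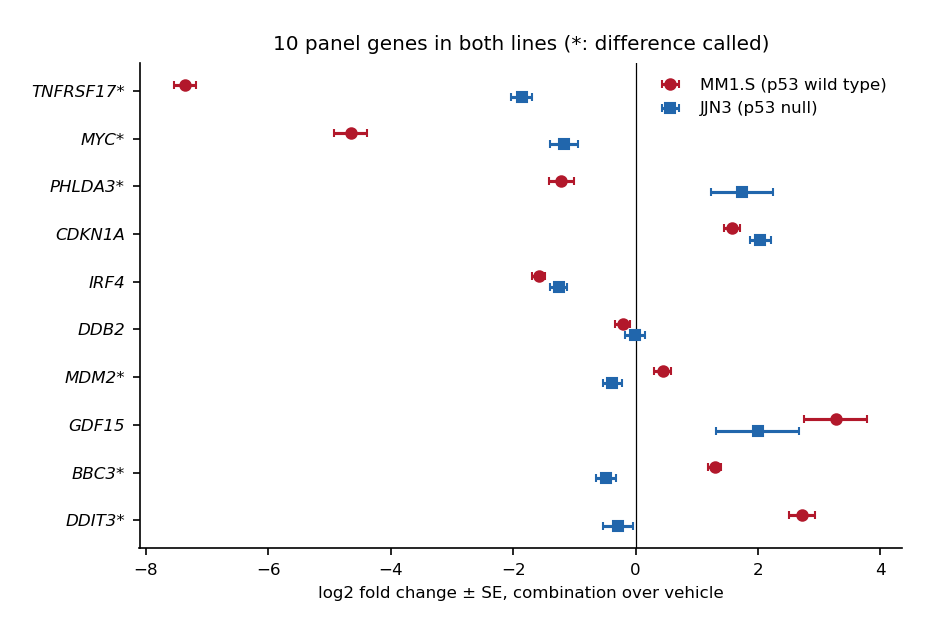
Log2 fold change ± SE of the combination over vehicle (horizontal axis) for 10 genes in MM1.S (red circles) and in JJN3 (blue squares); a star marks genes whose difference between the lines was called. TNFRSF17 and MYC fall further in MM1.S, and CDKN1A rises in both lines.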

How the data were processed

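3′ RNA sequencing of polyA-selected RNA was analysed from whole-number counts per gene, which the authors deposited as 2 tables, 1 for each line, of 28395 genes in 12 libraries each. Per the submitters' processing notes, HISAT2 2.2.1, featureCounts 2.0.1 and limma 3.50.0 were used with hg19/GRCh37, without their roles; strand use and the annotation counted are not stated there or in the labels. Symbols came from RefSeq (GRCh38.p14), used for names alone outside the promoter sequences, and matched 27745 genes; the other 650 held at most 0.0387% of a library's counts.

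The 12 MM1.S libraries were fitted together as 4 group means with edgeR 4.0.16 in R 4.3.3: TMM scaling, filterByExpr (minimum count 10), a robust quasi-likelihood F test, two-sided, and Benjamini-Hochberg adjustment over all 12030 genes tested, with 8 residual degrees of freedom. Both lines were compared in a fit of all 24 libraries (16 residual degrees of freedom, 12872 genes), which gives the adjusted p of JJN3 and of the difference between lines. Values without a library come from fits that leave it out. Every adjusted p is from edgeR's quasi-likelihood test. A gene is called at an adjusted p under 0.05; fold changes are log2, with the SE from the F statistic. Levels are CPM, whose precision at these depths is limited by counting: a count of 0 in a library allows up to 3 counts. Counting intervals are exact 95% intervals, for counting error only. The procedure was tested on simulated data. Figures used Python 3.11.15, pandas 2.3.3 and matplotlib 3.10.9.

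Genes named are the 8 largest rises and 8 largest falls among called genes whose groups do not overlap and whose log2 CPM averages 3 or more, the 3 members of each list with the smallest p, and a panel of single genes; some genes named by this rule are not reported here. Members and lists were chosen with earlier results of these data known. Libraries were grouped by their labels, which state no pairs, and replicate numbers were not taken as pairs. Deviations of same-numbered combination and vehicle libraries from their group means correlated at 0.06, -0.05 and 0.01. With the libraries of each single drug these correlations were higher and are given below. Alternatives were other scalings, other filters, DESeq2 1.42.0, limma-voom (limma 3.58.1), a replicate block, the 6 libraries alone and leaving out each library.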

Additional observations from a re-analysis of the deposited data

Results flagged for a closer look

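For 6 of the 10 genes compared between the lines, beside 32.8% of all genes, the effect of the combination over vehicle differed between MM1.S and JJN3 by a test of the difference itself, edgeR's interaction term in the fit of 24 libraries. As JJN3 minus MM1.S on the log2 scale, the difference was 5.50 for TNFRSF17, 3.49 for MYC and 2.95 for PHLDA3. It was -0.82 for MDM2, -1.77 for BBC3 and -2.99 for DDIT3. MM1.S and JJN3 are 1 line each, so p53 status and other differences between the lines cannot be told apart.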

How the results depend on the processing

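The count of genes called between the combination and vehicle in MM1.S kept within 1.5 times of 8442 under all alternatives run, from 6370 with at least 10 CPM in 3 libraries to 9438 with no filter on low counts, and from 8012 to 8317 with 1 library left out. The count against CX-5461 ranged from 7933 to 8106 with 1 library left out, and that of the difference between lines from 3685 to 4160. Against panobinostat, in place of 491 genes, 925 were called with a replicate block, and 175 to 1177 with 1 library left out. The replicate block gave 8654 genes for the combination against vehicle, 8615 against CX-5461 and 5197 between lines. Same-numbered combination and panobinostat libraries deviated together at correlations of 0.22, 0.29 and 0.08. Same-numbered combination and CX-5461 libraries did so at 0.09, 0.17 and 0.15. Different-numbered libraries correlated at -0.29 to 0.08 with panobinostat and at -0.16 to 0.01 with CX-5461. The labels state no pairs and the fit reported took none, so the count against panobinostat depends on that choice. An effect of the replicate number was not tested. Of 147 named genes, 139 kept their direction and their side of the threshold for the combination against vehicle under every alternative run. The direction turned for CIITA, which was not called: 0.10 in the fit reported, and -0.10 to 0.19 with 1 library left out. ATF4, CCL3, CD38 and MDM2 lost their calls under at least 1 alternative, and the cause was not tested. For single genes and lists, calls against panobinostat alone, against CX-5461 alone and between the lines were not tested under the alternatives. Those against panobinostat come from the contrast whose count changed most with single libraries left out. With 3 libraries a group, changes in genes near 1 CPM were limited by counting.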
